A study of Mus musculus with 2 samples.

Results

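Repeat-masked sequence away from gene starts held few of the DNase-seq peaks called in the mouse cerebellum, and those peaks were mostly weak. In DNase-seq the enzyme DNase I cuts nuclear DNA where it is reachable, and the ends it leaves are sequenced, so that a peak marks open chromatin. The peaks described here are those of the shorter of 2 deposited lists per library whose centre lay over 1 kb from every annotated transcript start and whose bases were soft-masked, that is, written in lower case as repeat sequence, to 80% or more in the mm10 genome. They numbered 407 of 35366 distal peaks (1.15%) in replicate 1, of 61776 peaks in all, and 450 of 44048 (1.02%) in replicate 2, of 71141 in all. Below they are called masked distal peaks, and they are set against the distal peaks without any masked base, 19866 and 23256 in number. Partly masked distal peaks made up the other 15093 and 20342. The rule used sequence and position only, so the signal, the footprints and the sharing between libraries were not part of it.

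The mice were males of the B6CASTF1/J cross aged 8 to 10 months, in whose cerebellum the alleles of the parent strains were not told apart here, and no treatment is stated. The 2 libraries are biological replicates of a single group, each from its own pool of 2 cerebellum biosamples. Nothing in the labels tells if both pools held tissue of the same mice, and the spread between libraries may be partly technical. The cell types of the tissue were not separated. All 20 genes of a granule cell list had a peak at a transcript start in both libraries, against 4 of 7 Purkinje cell, 1 of 7 forebrain neuron, 1 of 6 oligodendrocyte and 0 of 6 microglia genes in each, and 2 and 3 of 5 genes of choroid plexus and ependyma. The authors' signal, a value per peak on a scale that is not stated, moved in steps of 0.00714 in replicate 1 and 0.00632 in replicate 2: all values under 100 steps were whole multiples within 0.05 of a step. The median masked distal peak stood at 56 and 61 steps, and the median unmasked one, above the range tested, at 155 and 122. Were each step a single cut, counting alone would give an error of 13.4% and 12.8% for masked peaks.

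Interspersed repeats are copies of mobile elements: short ones that do not encode their own machinery (SINEs, among them B1 and B2 in rodents), long ones that do (LINEs), and those flanked by long terminal repeats (LTRs), which derive from retroviruses. Other repeats are tandem arrays, such as the satellites beside mouse centromeres. Many copies are kept closed in somatic cells by DNA methylation, and some by histone methylation that KRAB zinc finger proteins bring through TRIM28 and SETDB1. Yet some copies carry binding sites. B2 elements are known in rodents for carrying sites of CTCF, the zinc finger protein that anchors chromatin loops.

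The sequences below were chosen because each shows a pattern described later. They are the plus strand of the RefSeq copy of GRCm38.p6 (mm10), 5′ to 3′, and capitals mark bases inside a footprint, a short stretch protected from cutting, of the library whose peak is printed. Those near Bcdin3d, Ablim1, 1810055G02Rik and Dock6 carry words or motifs under footprints. That in Pcdh9 belongs to a group of peaks, joined in chains of alike pairs, that was often shared. The remaining ones are a peak of many-copy sequence and a tandem array.
Peak near Bcdin3d, chr15:99469161-99469340: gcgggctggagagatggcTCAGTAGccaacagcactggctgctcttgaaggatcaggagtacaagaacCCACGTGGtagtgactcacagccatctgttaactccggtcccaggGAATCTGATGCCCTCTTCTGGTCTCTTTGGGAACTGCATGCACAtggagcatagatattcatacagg
Peak in Ablim1, chr19:57161425-57161589: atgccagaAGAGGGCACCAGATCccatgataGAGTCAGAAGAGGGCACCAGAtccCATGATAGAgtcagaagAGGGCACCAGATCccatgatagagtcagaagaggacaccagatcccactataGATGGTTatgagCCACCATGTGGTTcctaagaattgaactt
Peak near 1810055G02Rik, chr19:3724894-3725040: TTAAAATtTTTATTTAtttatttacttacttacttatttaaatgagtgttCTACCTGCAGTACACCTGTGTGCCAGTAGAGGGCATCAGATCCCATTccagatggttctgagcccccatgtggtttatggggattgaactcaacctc
Peak near Dock6, chr9:21869440-21869513: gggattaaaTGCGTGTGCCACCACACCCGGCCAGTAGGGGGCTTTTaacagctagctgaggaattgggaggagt
Peak in Pcdh9, chr14:93214861-93215160: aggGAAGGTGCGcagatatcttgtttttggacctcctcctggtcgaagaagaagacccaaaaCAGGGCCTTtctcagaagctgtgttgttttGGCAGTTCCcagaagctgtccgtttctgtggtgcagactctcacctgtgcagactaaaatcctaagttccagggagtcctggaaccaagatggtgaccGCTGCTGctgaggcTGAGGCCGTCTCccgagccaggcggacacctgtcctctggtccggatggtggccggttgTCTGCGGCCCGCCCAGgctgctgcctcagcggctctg
Peak near Dusp6, chr10:99339341-99339620: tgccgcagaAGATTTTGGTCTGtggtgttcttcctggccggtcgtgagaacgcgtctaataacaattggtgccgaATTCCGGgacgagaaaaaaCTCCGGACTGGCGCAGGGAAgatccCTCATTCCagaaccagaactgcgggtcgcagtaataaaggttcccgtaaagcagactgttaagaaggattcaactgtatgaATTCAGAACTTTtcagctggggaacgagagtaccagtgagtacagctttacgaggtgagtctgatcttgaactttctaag
Peak in Gm10722, chr9:3002041-3002220: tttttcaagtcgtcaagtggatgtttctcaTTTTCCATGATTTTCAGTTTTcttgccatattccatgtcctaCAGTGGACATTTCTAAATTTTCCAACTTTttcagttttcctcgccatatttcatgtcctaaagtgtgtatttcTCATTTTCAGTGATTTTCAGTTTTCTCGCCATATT

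Masked sequence was sparse among distal peaks. Of the bases of all distal peaks, 8.52% in replicate 1 and 8.74% in replicate 2 were soft-masked, against 35.3% of the 21 chromosomes. Every base was masked in 157 of the 407 masked distal peaks (38.6%) in replicate 1 and in 182 of 450 (40.4%) in replicate 2. Chromosome Y, with 96.3% of its known bases masked, gave 8 masked of 19 distal peaks (42.1%) and 10 of 32 (31.2%). Chromosome X gave 10 of 634 (1.58%) and 22 of 991 (2.22%). The libraries differed most in number on chromosomes 17 and 6, with 26 masked distal peaks in replicate 1 and 10 in replicate 2 on the first, and 20 and 36 on the second.

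Masked distal peaks were weaker and narrower than unmasked ones. Median signal was 0.4 for masked against 1.11 for unmasked distal peaks in replicate 1, and 0.389 against 0.771 in replicate 2. Across libraries that is 0.394 ± 0.00774 for masked and 0.939 ± 0.237 for unmasked peaks (SD, n = 2), a mean difference of -0.545 ± 0.229. The strongest masked peak reached 4.28 and 5.68, the strongest unmasked one 30 and 18.5. Median width was 130 and 120 bp for masked and 180 and 188 bp for unmasked peaks. The lowest false discovery rate of the cut rate inside a peak had a median -log10 of 5.03 and 4.47 for masked and 6.59 and 6.62 for unmasked peaks. Mean GC content was 51.8% and 49.9% against 54.4% and 52.2%. With 2 libraries an exact sign-flip permutation test, two-sided, cannot give less than p = 0.5. This exact test gave p = 0.5 for the differences in signal, width, GC content, sharing, footprints, the share of single-copy peaks and gene position, and none is called. Where the libraries differ in direction the exact test gives p = 1, as for the motifs of CCAAT, NRF1 and ROR below, and for the other motifs in whole peaks it gave p = 0.5. Each is given by the values of both libraries, and intervals of shares cover counting error only.

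**Figure D1:**
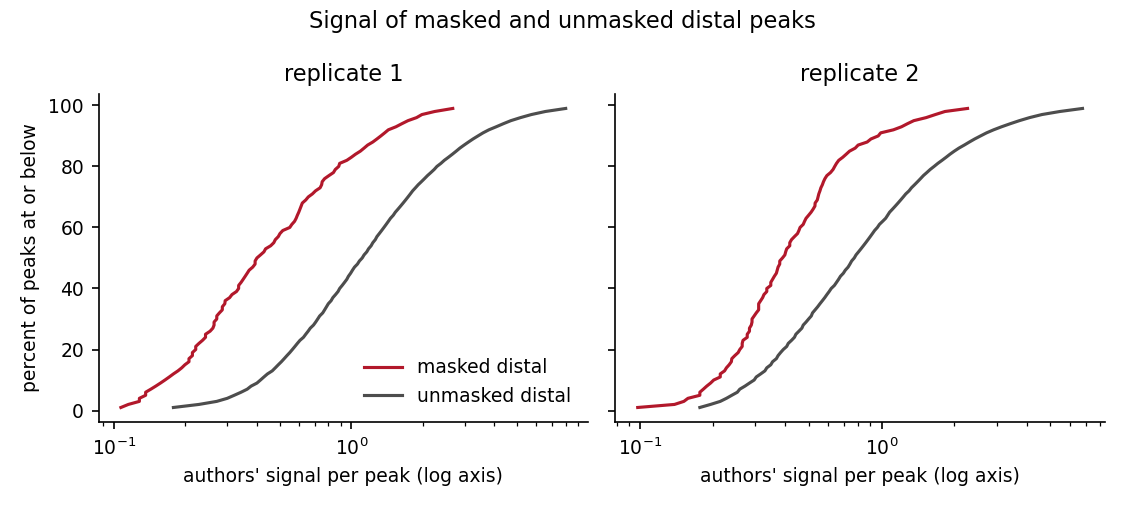
Cumulative share of masked (red) and unmasked (grey) distal peaks by the authors' signal per peak on a log axis, from the 1st to the 99th percentile in each library. The curve of masked peaks lies to the left of that of unmasked peaks in both replicates, with medians of 0.4 against 1.11 and 0.389 against 0.771.

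Fewer masked distal peaks were found again in the other library. Of masked peaks, 132 of 407 (32.4%, 95% Wilson interval 28.1 to 37.1) in replicate 1 overlapped a peak of replicate 2 by 1 bp or more, against 74.3% of unmasked ones (73.7 to 74.9). In replicate 2 it was 119 of 450 (26.4%, 22.6 to 30.7) against 57.8% (57.1 to 58.4). Over all distal peaks the shares were 72.5% and 58.2%. The mean difference was -36.6 ± 7.44 percentage points (SD, n = 2). Weighting unmasked peaks to the signal deciles of masked ones brought it to -13.2, with 29.4% of masked against 42.7% of unmasked peaks. The 2 lowest of 10 signal deciles held 60.4% and 53.1% of the masked and 19.4% and 21.6% of the unmasked distal peaks. In the upper 5 deciles 37 of 59 masked peaks (62.7%) were shared in replicate 1 and 34 of 60 (56.7%) in replicate 2, against 90.9% and 80.1% of unmasked peaks. Against the longer list of the other library, 46.4% and 48.2% of masked and 84.0% and 76.4% of unmasked peaks found an overlap.

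**Figure D2:**
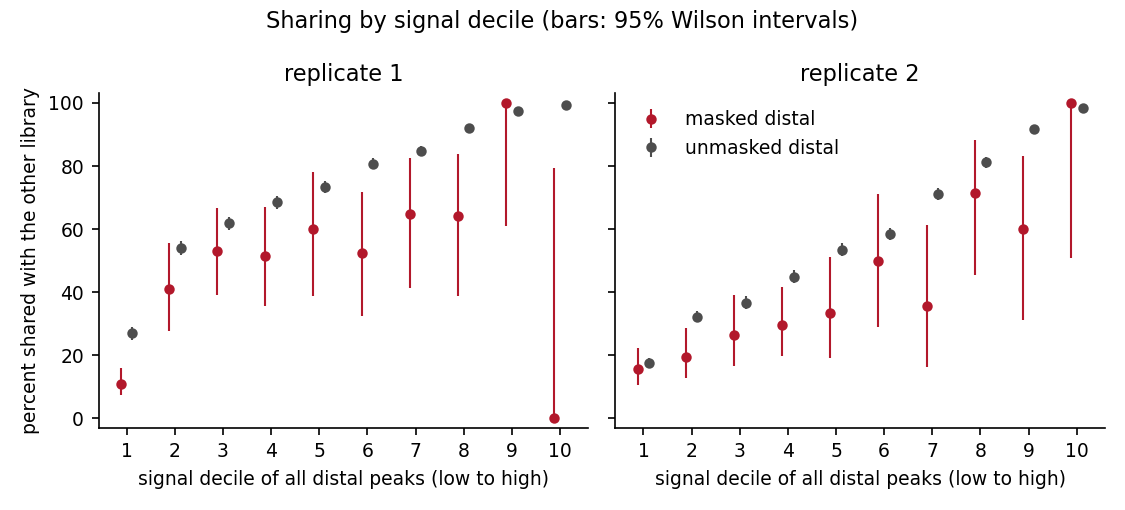
Share of masked (red) and unmasked (grey) distal peaks that overlap a peak of the other library, by decile of signal over all distal peaks of the library, with 95% Wilson intervals. Masked points lie below unmasked ones in all deciles but the ninth of replicate 1 and the tenth of replicate 2, and the tenth decile of replicate 1 holds 1 masked peak.

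Shared masked peaks differed from unshared ones in signal, CpG and footprints, and CpG and footprints were not compared at matched signal. Their median signal was 0.724 and 0.544, against 0.293 and 0.367 in those not shared. They held 25.3 and 26.1 CpG per kb against 13.8 and 11.6, and 87.1% and 83.2% of them held a footprint against 53.8% and 56.5%. Masked peaks with 30 or more CpG per kb were shared in 42.9% and 49.3% of cases, and those under 10 CpG per kb in 27.1% and 20.2%. Unmasked peaks with 30 or more CpG per kb were shared in 70.9% and 71.8% of cases and those under 10 in 73.5% and 44.2%, so the order by CpG held in replicate 2 alone for unmasked peaks. The partner of a shared masked peak was itself masked to 80% or more in 97 of 132 cases in replicate 1 and in 97 of 119 in replicate 2, and partly masked otherwise. For 131 pairs that were each other's best overlap, the median log2 ratio of signal, replicate 1 over replicate 2, was 0.30, against 0.28 for 14469 unmasked pairs.

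Values on the 2 sides of the 80% threshold were near each other. Peaks masked to between 75% and 80%, just outside, numbered 86 and 95, with a median signal of 0.621 and 0.43, and 39.5% and 24.2% were shared. Those between 80% and 85%, just inside, numbered 84 and 89, with 0.6 and 0.417, and 38.1% and 28.1% were shared. Peaks masked over their whole length had a median signal of 0.35 and 0.36, and 34.4% and 27.5% were shared.

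Footprints were present in a smaller share of masked distal peaks. They lay in 263 of 407 (64.6%, 59.9 to 69.1) in replicate 1 and in 286 of 450 (63.6%, 59.0 to 67.9) in replicate 2, against 89.2% and 84.6% of unmasked peaks and 88.9% and 85.5% of all distal peaks. Per kb of peak there were 9.59 and 10.6 footprints in masked and 14.6 and 13.2 in unmasked peaks. With unmasked peaks weighted to the signal deciles of masked ones, the mean share with a footprint was 64.1% in masked against 68.5% in unmasked peaks. At single-copy peaks, defined below, the density was 11.8 per kb in masked against 13.9 in unmasked peaks (means of 2 libraries), a difference of -2.11. The mean density weighted to signal was 10.1 per kb in masked against 9.71 in unmasked peaks, a difference of 0.393 per kb, opposite in direction to the -3.8 without weighting. The footprint lists give the same value for every footprint, so strength could not be compared.

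Masked peaks more often held sequence that the genome has at several places. Of masked peaks of 32 bp or more, 114 of 404 (28.2%, 24.1 to 32.8) in replicate 1 and 137 of 440 (31.1%, 27 to 35.6) in replicate 2 had 90% or more of their 32-base stretches at a single place in the genome, against 98.6% and 98.8% of unmasked peaks. The median 32-base stretch occurred over 100 times in 49 masked peaks (12.1%) and 46 (10.5%), and in 0 unmasked peaks of either library. How reads from such sequence were placed is not stated in the sources. The part of read placement in the small number and the lower signal of masked peaks was not tested. Among peaks with 90% or more single-copy stretches, 30% of masked were shared against 66.2% of unmasked (mean of 2 libraries), and median signal was 0.525 against 0.939. The difference in sharing at such single-copy peaks was -36.2 percentage points, against -36.6 over all peaks.

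The masked peaks of the 2 libraries merged into 755 regions, 97 of which had a member in both. By likeness of sequence (80% identity or more over 80% or more of the shorter peak), 478 regions fell into 36 groups of 2 or more, and 277 were alike no other. Groups were joined in chains of alike pairs, so that regions of a group need not be alike each other. Unlike sequences were seen to be joined in this way. The largest group chained 311 regions on 21 chromosomes. It was shared in 35 of 174 members (20.1%, 14.8 to 26.7) in replicate 1 and in 32 of 168 (19%, 13.8 to 25.7) in replicate 2. Of its regions 80 resembled the single B1 element that the RefSeq annotation marks (chromosome 7, 103823699 to 103823836), and 88 of all 755 did, with a median identity of 86.6%. For likeness to annotated elements any alignment with E under 1e-05 counted, without the limits of identity and length used for groups. Peaks alike that B1 element were shared in 5 of 49 (10.2%, 4.44 to 21.8) and 6 of 45 (13.3%, 6.26 to 26.2), and the other masked peaks in 35.5% and 27.9%. Any B1 copies that did not align so stand among the others. A single region resembled the annotated LTR element LTRIS4. Repeat classes of the other regions are not named, since no repeat annotation was used.

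The second largest group, of 34 regions on 15 chromosomes, was CpG-dense and often shared. It held 43.5 and 44.3 CpG per kb, against 17.7 and 16.6 over all masked peaks. A median of 32.5% and 28.4% of the 32-base stretches of its members were single-copy, against 75.6% and 70.6% in the largest group. Shared were 18 of 29 members (62.1%, 44.0 to 77.3) in replicate 1 and 18 of 22 (81.8%, 61.5 to 92.7) in replicate 2, at a median signal of 0.45 and 0.506. The motif AAGATGG of YY1, a zinc finger factor, lay in 6 of 29 and 7 of 22 members. The sixth group, of 9 regions, had 64.5 and 55.3 CpG per kb, and 4 of 6 and 4 of 7 members were shared. The YY1 motif lay in 1 of 6 and 4 of 7 of its members. Groups 3, 4 and 5 in order of size had 15, 13 and 13 regions, and at most 1 shared member in either library. Median single-copy shares were 17.6% and 20% in group 6 and 26.4% and 0% in group 3. They were 61.8% and 84.1% in group 4 and 12.7% and 47.9% in group 5. The part of copy number in sharing was not tested. Short tandem repeats of 1 to 6 bases filled 13 of the 755 regions, 4 of them in the group of 15.

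**Figure D3:**
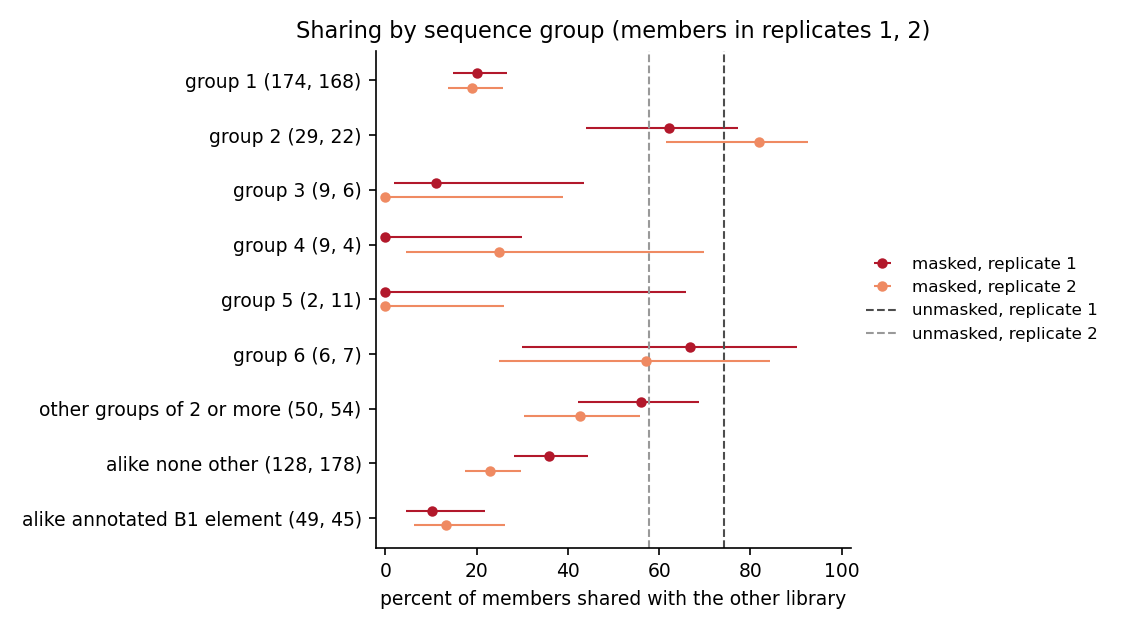
Share of masked distal peaks found again in the other library, by sequence group, with members in replicates 1 and 2 in brackets and 95% Wilson intervals. Groups are chains of alike pairs. Group 2 lies at 62.1% and 81.8% and group 6 at 66.7% and 57.1%, beside unmasked distal peaks at 74.3% and 57.8% (dashed lines), and the largest group and the peaks alike the annotated B1 element lie below 30%.

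Short words common to many masked peaks differed in where footprints fell. The words, of 16 bases, were picked in turn. Each was the word held by most of the regions without an earlier word. The words described here are shown because footprints covered some of them whole and others not. Of words 1 to 10, only words 3 and 5 lay whole inside a footprint in any masked peak of either library. The share of all 16-base stretches that footprints cover whole was not counted.
Word 1, in 36 regions: aaccacatggtggctc
Word 2, in 26 regions: agtgctgggattaaag
Word 3, in 27 regions: ccagaagagggcatca
Word 5, in 21 regions: aggccagaagagggca
Word 8, in 8 regions: agaggacaggtgtccg
Footprints covered the whole of word 3 in 9 of 16 masked peaks that hold it in replicate 1 and in 5 of 16 in replicate 2. For word 5, which overlaps word 3 in its letters, it was 7 of 15 and 6 of 9. Words 1 and 2 lay whole inside a footprint in 0 of 21 and 0 of 16 masked peaks in replicate 1, and in 0 of 17 and 0 of 11 in replicate 2. Word 8 did so in 0 of 8 and 0 of 7, and a footprint touched it in 2 and 1. A footprint touched word 1 in 4 of 17 in replicate 2, and in the printed peak of Ablim1 it covered 13 of its 16 bases. The median signal of masked peaks was 0.896 and 0.48 with word 3, 0.914 and 0.55 with word 5, 0.186 and 0.55 with word 1 and 0.414 and 0.392 with word 2, and the part of signal in these counts was not tested. In partly masked distal peaks word 3 was wholly footprinted in 47 of 57 cases and 36 of 60, and word 5 in 65 of 81 and 40 of 71, while word 2 was so in 0 of 71 and 0 of 51. At 28 bases before the middle of word 3, 50% of the masked peaks that cover that base were in a footprint in each library, and the highest share at any base was 75% and 60%. Neither word matches the CTCF core as it was searched here, and both hold the run AGAGGGC that also stands in the printed peaks near 1810055G02Rik and in Ablim1. The peak in Ablim1, listed as a masked distal peak in replicate 2 alone, had a signal of 1.83 and 6 footprints.

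**Figure D4:**
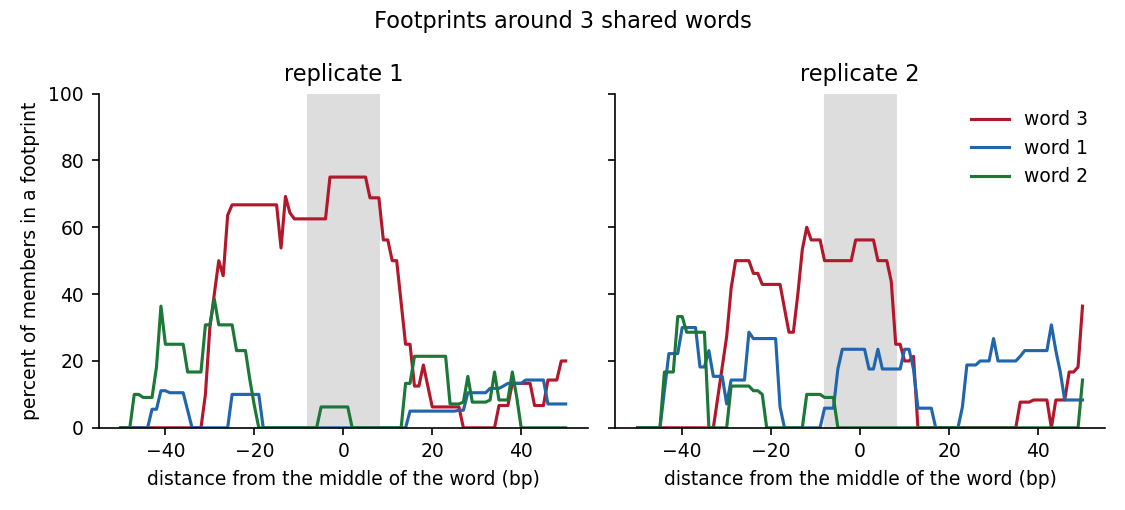
Share of masked distal peaks in a footprint at each base around words 3, 1 and 2, read in the direction of the word, where 5 or more peaks cover the base; the grey band is the word. At the middle of word 3 the share is 75% in replicate 1 and 56.2% in replicate 2, while over words 1 and 2 it stays at or below 23.5%.

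The words also differed in how often their copies lay in distal peaks at all. Word 5 occurs 4230 times on the 21 chromosomes, and 96 and 80 distal peaks hold it, or 2.27 and 1.89 for every 100 occurrences. Word 3 gave 0.308 and 0.321 per 100, of 23675 occurrences, and word 1 gave 0.0576 in both libraries, of 52078. For word 2, which 98547 places hold, it was 0.0883 and 0.0629.

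Word 8 marked a small set that was almost wholly shared. Of its masked peaks 7 of 8 in replicate 1 and 7 of 7 in replicate 2 overlapped a peak of the other library, at a median signal of 1.41 and 0.936. All lay in the group of 34 regions, and the genome holds the word 3013 times. The peak in Pcdh9, a protocadherin of neurons, had a signal of 2.81 and 1.59 and 6 footprints in each library. A peak 393 kb from the start of Cntn5, a contactin of neuronal cell adhesion, had 1.97 and 2.05. A pair of peaks 318 kb from Dad1, a subunit of oligosaccharyltransferase, had 1.78 and 1.14, and 2.13 and 0.936. A peak 84.1 kb from Slc4a4, a sodium bicarbonate cotransporter, had 1.03 and 0.803. The peaks near Gm10340 and Slc10a2 had 0.464 and 0.183, and 0.578 and 0.177, and that near Dnajb9 was found in replicate 1 alone, at 0.264.

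Known motifs were mostly rarer in masked distal peaks. Of 19 motifs searched on both strands without mismatch, 14 were held by a smaller share of masked than of unmasked peaks in both libraries and 2 by a larger share. Of the 14, 4 had 0 masked peaks in at least 1 library, and 6 had Wilson intervals apart from those of unmasked peaks in both libraries, namely CTCF, NFI, AP-1, ZIC, SOX and the E-box CAGCTG. The other 3, those of CCAAT, NRF1 and ROR, differed in direction between libraries. The CTCF core lay in 1.47% and 0.667% of masked against 9.12% and 8.01% of unmasked peaks. Masked peaks that hold word 3 or 5, each a single base off that pattern, numbered 26 and 21. Matches with a mismatch were not counted in either class. The site TTGGCA of the NFI factors, which act in granule cell maturation, lay in 9.09% and 9.56% against 21.1% and 24.4%. The site CAGCAGG of the ZIC factors, kept on in mature granule cells, lay in 5.9% and 5.33% against 16.8% and 15.7%, and the SOX site ACAAAGG in 0.737% and 1.11% against 3.97% and 4.02%. The E-box CAGCTG lay in 11.5% and 6.67% against 16.8% and 15.9%. The E-box CAGATG, a site of neuronal bHLH factors such as NEUROD1, was nearer, with 22.6% and 22.9% against 25% and 27%. Masked peaks are narrower, so shares understate them: per kb the E-box CAGATG occurred 1.75 times in masked and 1.67 times in unmasked peaks, the ZIC site 0.498 and 0.987 times, and the CTCF core 0.0734 and 0.471 times (means of 2 libraries).

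The 2 motifs higher in masked peaks were those of YY1, with 6.14% and 5.11% against 3.7% and 3.9%, and the TATA box TATAAA, with 6.39% and 5.78% against 3.49% and 4.73%. For both, the Wilson intervals of masked and unmasked peaks lay apart in replicate 1 alone. Without group 2, YY1 lay in 19 of 378 masked peaks (5.03%) and 16 of 428 (3.74%), against the same 3.7% and 3.9% of unmasked peaks, so in replicate 2 the higher share rested on that group. Inside footprints YY1 was found in 1 and 0 masked peaks and the TATA box in 0 and 0, too few for a direction. Of the motifs inside footprints, 6 had a smaller share in masked peaks with separate intervals in both libraries, those of CTCF, NFI, ZIC, SP/KLF and both E-boxes. A motif was added after the data had been seen. The B box TTCGANNC of RNA polymerase III promoters, known from tRNA-derived SINEs, lay in 4.91% and 2.22% of masked against 1.66% and 1.52% of unmasked peaks. Its intervals too lay apart in replicate 1 alone.

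**Figure D5:**
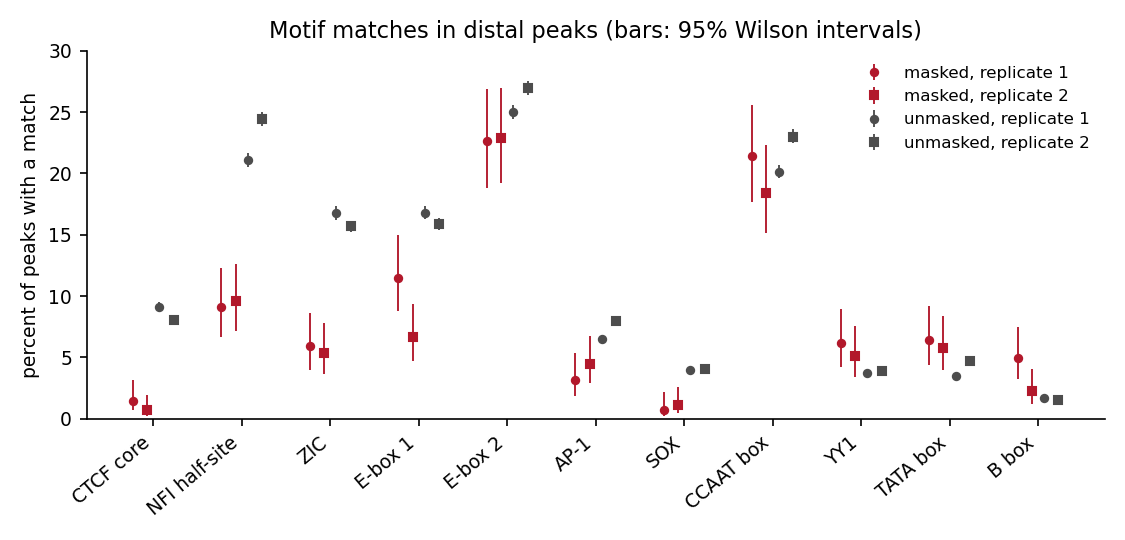
Share of masked (red) and unmasked (grey) distal peaks with a match to each of 11 motifs, circles for replicate 1 and squares for replicate 2, with 95% Wilson intervals. E-box 1 and E-box 2 stand for CAGCTG and CAGATG. Masked peaks lie well below unmasked ones for CTCF, NFI and ZIC. They lie above them for YY1, the TATA box and the B box, where the intervals overlap in replicate 2.

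The strongest shared masked peaks came from unlike kinds of sequence. For a shared peak the value of the other library is that of its best overlapping peak. In Gm10722 (chr9:3002041-3002220) the signal was 0.742 in replicate 1 and 5.68 in replicate 2, the largest gap among the 10 strongest. Around it, within 2000 bases on either side, the bases matched those 234 bases away in 75.5% of cases, the best of all spacings from 20 to 1000. A second such peak, in Gm11168 (chr9:3006701-3006940), had 1.38 and 3.17. Neither peak had a single-copy 32-base stretch. The peak near Dusp6 (chr10:99339341-99339620), which encodes a phosphatase of ERK kinases, had 2.88 and 1.53, and its median 32-base stretch occurs 782 times in the genome.

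Of the 10 strongest, the peak in Gria4 was most alike in both libraries. In Gria4 (chr9:4749481-4749660), an AMPA receptor subunit gene, the signal was 2.69 and 2.71, with 3 and 4 footprints. Near Bcdin3d (chr15:99469161-99469340), an RNA methyltransferase gene, it was 2.31 and 2.1, and 96.6% of the 32-base stretches are single-copy. The peak 121 kb from Slc1a3, the glutamate transporter of Bergmann glia and astrocytes (chr15:8831981-8832240), had 1.91 and 2.42. The peak near Cypt2 (chrX:105583481-105583720) had 2.08 and 3.05 with 5 footprints in each library. The peak in Ano3, an anoctamin gene (chr2:110929221-110929420), had 1.54 and 3.38. A peak 119 kb from the vomeronasal receptor gene Vmn1r238 (chr18:3004841-3004980) had 2.98 and 2.38, with 38.5% of its 32-base stretches single-copy.

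Of the shared masked peaks, that near Dad1 held most footprints. It (chr14:53935801-53936220) had 11 and 8, and the peak near Akap1 (chr11:88895741-88896260), which encodes a mitochondrial anchor of protein kinase A, held 7 and 9. The peak near Zfp619 (chr7:39655201-39655560), the strongest shared one of the sixth group, held 4 and 8. The peak near Gm21119 (chr8:20678441-20678840) held 5 and 7 without a single CpG. The widest masked peaks of replicate 1, which were not shared, lay near Lrrc23 and Foxn2 with 820 and 780 bp and held 0 footprints. Among peaks with the CTCF core, that near 1810055G02Rik had a signal of 2.31 and 1.44 with 3 footprints in replicate 1 and 1 in replicate 2, and that near Dock6, an exchange factor for Rac and Cdc42, had 0.892 and 0.569. The core of the third, in Krcc1, came with 0.464 and 0.24. The strongest shared peak of the third group, near Smarcc2, a subunit of SWI/SNF remodellers, had 1.05 and 1.65, and that of the fourth, in Cfap44, had 0.393 and 0.291 and no footprint in either library.

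Some strong masked peaks had no counterpart in the shorter list of the other library. The strongest of replicate 1, 25.2 kb from 1700069L16Rik (chr5:113679081-113679320), reached 4.28 with 3 footprints and overlapped no peak of replicate 2 in either list. The next, near Jph3, a junctophilin gene, had 2.26 and overlapped the longer list of replicate 2.

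Masked distal peaks lay less often inside coding genes. They fell in a coding gene span in 180 of 407 cases (44.2%, 39.5 to 49.1) in replicate 1 and 175 of 450 (38.9%, 34.5 to 43.5) in replicate 2, against 57.9% and 57.6% of unmasked peaks. Among peaks with 90% or more single-copy stretches, it was 56.8% of masked against 57.9% of unmasked (mean of 2 libraries), so the difference of -16.2 percentage points was -1.09 there, with p = 1 in the exact permutation test over 2 libraries. Exons were met by 1.47% and 2.44% of masked against 12.5% and 9.82% of unmasked peaks. The median distance to the nearest transcript start was 7.87 and 8.43 kb against 9.49 and 10.9 kb. In the longer lists that order turned, with 13.7 kb for masked against 10.5 kb for unmasked peaks (mean of 2 libraries).

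Nearest coding genes of masked distal peaks were widely spread. They numbered 332 in replicate 1 and 400 in replicate 2, of which 107 were the same, and 283 and 362 had a single such peak. Of the genes with such a peak in each library, Pramef17 had most, a PRAME family gene with 4 in each within 3.2 kb (chr4:143985241-143988440) and a signal from 0.393 to 1.61, where no unmasked distal peak lay nearest. Akap1 followed with 3 and 3, and Dad1 with 2 and 4. Dusp6 and the olfactory receptor gene Olfr330 had 2 in each library, all of them shared. Zdhhc25, a palmitoyltransferase gene, also had 2 and 2, at 55.2 to 191 kb, and Gm21119 had 1 and 3. Eif1, a translation initiation factor, Gm21739 on chromosome Y and Gria4 had 1 and 2 each, and Fnbp1, a formin-binding protein, and Ldlrad4 had 2 and 1 each. Other genes had 4 or more in a single library and none in the other, led by Foxn2, a forkhead factor gene, with 9 in replicate 1, of which 2 overlap each other (chr17:88362393-88397400). Their signal was 0.128 to 0.914, 2 of the 9 held a footprint and 0 were shared. Hif3a had 5, Efr3b, Lemd2 and Lrrc23 had 4 each in replicate 1, and Ezh2 had 4 in replicate 2, and 0 of them were shared. At Hif3a and at Lrrc23 too, 2 of the peaks overlap each other.

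For granule cell genes no difference was detectable with 2 libraries. The 20 granule cell genes were nearest to 0 of 407 masked peaks in replicate 1, which allows a share of up to 0.935% (Wilson), and to 3 of 450 in replicate 2 (0.667%), against 0.71% and 0.572% of unmasked peaks. The libraries differed in the sign of that difference, and the exact permutation test gave p = 1. None of those 3 was shared with replicate 1. Of 27 genes that silence repeats, among them Trim28, Setdb1 and Zfp809, 27 had a peak at a transcript start in each library, against 58.4% and 57.2% of coding genes, while the share of unmasked distal peaks nearest to them, 0.0705% and 0.0817%, is too small for the 0 masked peaks found to be read. Olfactory receptor genes were nearest to 0.983% and 1.11% of masked against 0.146% and 0.15% of unmasked peaks, and 0.705% and 0.794% of them had a peak at a start. Zfp genes, many of which encode KRAB zinc finger proteins, were nearest to 1.47% and 1.78% against 1.16% and 1.18%. Of only the peaks whose nearest coding gene lay within 50000 bases, the Zfp shares were 0.98% and 1.28% against 1.03% and 1.04%. These differ in direction between libraries. Vomeronasal receptor genes, of which 0.303% had a peak at a start in each library, were nearest to 0.737% and 0.444% against 0.0403% and 0.0387%. Of only the peaks with a coding gene within the same distance, the vomeronasal shares were 0.327% and 0% against 0.0539% and 0.0425%. These too differ in direction between libraries. Without that distance limit, the receptor and Zfp shares of masked peaks rest on 2 to 8 peaks in each library. For those shares the exact permutation test gave p = 0.5 for each list.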

How the data were processed

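DNase-seq of cerebellum was used, 2 libraries of 1 group, on mm10 per the labels. Every library has 2 peak lists, footprints and a table deposited by the authors, the last one of the false discovery rate (FDR, a q-value or adjusted p-value, listed where under 0.05) of the cut rate. Each list came from 1 library without pooling, per the deposited file descriptions. Column 7 of the peak lists is the authors' signal, of unstated scale and never negative. The sources name no aligner, caller, read filter or read number. The footprint lists carry the same deposited score, 0.01, for every entry.

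Peaks of the shorter list were distal with a centre over 1 kb from all starts of GENCODE mouse release 21. Masking was that of RefSeq's GRCm38.p6 sequence, which can differ from that of other copies of mm10 and whose tool no source names. Unmasked meant no masked base. Sharing and footprints counted at 1 bp of overlap. Copies of 32-base stretches were counted on both strands of 21 chromosomes. Likeness came from BLAST 2.17.0 with E under 1e-05, and other steps from Python 3.11.15, numpy 2.4.6, pandas 2.3.3 and scipy 1.17.1. Motifs were searched on both strands without mismatch: TTGGCA for NFI, TGANTCA for AP-1, TGACGTCA for CRE, CAGATG and also CAGCTG for E-boxes, GGGCGG for SP/KLF, the CCAAT box, CAGCAGG for ZIC, AAGATGG for YY1, CCGGAAG for ETS, ACAAAGG for SOX, TAATTA for homeobox factors, TATAAA for the TATA box, and longer patterns for CTCF, the full NFI site, MEF2, RFX, NRF1 and ROR. Overlap, distance and interval code was tested on simulated data. Named were the 10 strongest shared masked peaks, the 5 shared ones with most footprints, the strongest shared one of each of the 4 largest groups, the 3 strongest with the CTCF core, and, of the coding genes with a masked peak in each library, the 12 nearest to most of them, ties in alphabetical order. Genes with 4 or more in a single library were added after values were seen. The words, the B box, the B1 likeness, the peaks near Ablim1, group 6 and the unshared peaks were chosen after values were seen. Members, lists and motifs were chosen with earlier results of these data known. A further motif and 1 peak are not reported here. Alternatives were other cutoffs of masking and distance, the longer list, single-copy peaks, weighting to signal or width, other overlaps, and each replicate alone.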

Additional observations from a re-analysis of the deposited data

How the results depend on the processing

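Over 98 alternatives of the comparisons, 92 kept the direction of the difference, or for a count or share its size, 3 reversed and 3 moved. With 2 libraries no p could pass a threshold under any of them. Weighted to the signal deciles of masked peaks, the difference in footprints per kb reversed to 0.393, and in the longer lists that in distance to the nearest start reversed to 3.22 kb. The cause was not tested. For peaks over 5 kb from every start, the libraries differed in the sign of the distance difference. The share of distal peaks that are masked, 1.09%, was 0.429% with every base masked, 3.47% at 50% or more and 2.55% in the longer lists, as fewer or more bases had to be masked or other peaks were listed. For single motifs, searching inside footprints only reversed 3 differences, to -0.0916 percentage points for NRF1, -0.509 for YY1 and -0.117 for the TATA box, each resting on at most 1 masked peak in a library. Without group 2, chosen after seeing the data, the YY1 difference was 0.582 points with opposite signs in the libraries.

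With each replicate left out in turn, the masked minus unmasked difference ran from -41.8 to -31.3 percentage points for sharing, -0.707 to -0.382 for signal, -24.6 to -21.1 points for footprint presence, -4.98 to -2.63 per kb for footprint density, -18.7 to -13.7 points for gene spans, -2.49 to -1.62 kb for distance and -70.3 to -67.7 points for single-copy sequence. For the granule cell genes it ran from -0.71 to 0.095 points, the other sign without replicate 1. The masked share of distal peaks ran from 1.02% to 1.15%. Peaks with both ends on the 20 bp grid of the list, an alternative chosen after seeing the data, gave differences of -37.2 points in sharing and -1.02 in signal. No paired analysis was possible because both libraries belong to 1 group, so that no replicate number joins samples of different groups. Masked and unmasked peaks were compared within each library throughout. At a median of 56 and 61 signal steps, masked peaks sit nearer the detection limit than unmasked ones, and what that adds to their lower sharing was not tested beyond the weighting to signal.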
